A study of Homo sapiens with 52 samples.

Results

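The heat shock and co-chaperone genes described here are 40 genes chosen by their symbols, out of 59408 genes listed in each table of an mRNA-seq time course of senescence in WI-38 cells. WI-38 cells are fibroblasts of normal human lung, which stop dividing after a limited life span in culture. The 40 genes were sorted by role into the HSP70 and HSP110 chaperones, the small heat shock proteins, the HSP90 chaperones and their partners, the J-domain proteins, the BAG proteins and the heat shock factors. Although most of the products work in the cytosol, HSPA9, HSPD1 and HSPE1 act in mitochondria and HSPA13 in the endoplasmic reticulum, and these 4 are given apart. Of the 40 genes, 35 had a mean level of at least 10 over the 26 groups and were tested among 15479 genes, and the other 5 (HSPA1A, HSPA1B, HSPA1L, HSPB2 and HSF1) are described by their levels.

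Senescence was induced by a 24-h exposure to 1 of 3 agents: the detergent SDS at 0.0090%, which damages the plasma membrane (PMD-Sen), KCl at 75 mM, which brings about calcium entry (Ca2+-Sen), or doxorubicin (DXR) at 250 nM, a drug that breaks DNA (DDR-Sen). RNA was taken on days 0 to 4, 6, 8 and 16, where day 0 is the day on which the agent was washed away. Untreated cells at a population doubling level of 32 to 46 were the control in each comparison, and cells at a doubling level of about 52 served as replicative senescence (RS). Each of the 26 groups had 2 libraries, and the deposited tables compare each group with the same pair of untreated libraries, so values of single libraries and a spread between replicates were not analysed here. Error is given as the standard error (SE) of the log2 fold change in the authors' tables, which covers both libraries of each group.

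Heat shock proteins are chaperones that bind unfolded protein and let it fold or pass it on for degradation. HSP70 works in cycles of ATP use that J-domain proteins start and that HSP110 and BAG proteins end by releasing the nucleotide, while HSP90 with its co-chaperones finishes the folding of kinases, receptors and other clients. Small heat shock proteins hold unfolded protein without using ATP. When unfolded protein builds up in the cytosol, the transcription factor HSF1 binds heat shock elements, repeats of the letters GAA and TTC in either order, and raises transcription of many of these genes.

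The letters of such an element stood before, or just after, the start site of 8 of the 35 genes that had a RefSeq promoter window (250 bases before to 50 after the start, GRCh38.p14). The search was for 3 units in turn, GAA, TTC and GAA or TTC, GAA and TTC, with any 2 bases (NN) between neighbouring units, read on both strands. These letters were in 0.49% of all 35116 windows, and in 22.9% of the 35 genes, counting any window of a gene, against 0.608% of all 27305 genes. The stretches that hold them are shown here since the genes behave differently below, with the matched letters in capitals and each read 5′ to 3′ on the strand of its gene.
HSPA6, chr1:161524390-161524539, plus strand, upstream of the start: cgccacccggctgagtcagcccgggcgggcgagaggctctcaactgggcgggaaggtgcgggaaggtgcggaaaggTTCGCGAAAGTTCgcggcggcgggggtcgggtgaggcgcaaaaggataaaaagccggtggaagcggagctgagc
DNAJB6, chr7:157336844-157336943, plus strand, upstream of the start: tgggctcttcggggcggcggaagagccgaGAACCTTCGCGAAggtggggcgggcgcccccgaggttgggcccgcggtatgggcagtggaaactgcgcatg
HSPA8, chr11:123062169-123062198, minus strand: gggccccTTCTGGAAGGTTCtaagataggg
HSPA8, chr11:123062345-123062374, minus strand: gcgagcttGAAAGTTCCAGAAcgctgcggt
HSP90AA1, chr14:102087112-102087141, minus strand: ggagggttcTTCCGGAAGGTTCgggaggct
HSP90AB1, chr6:44247822-44247851, plus strand: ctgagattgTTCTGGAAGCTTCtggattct
HSPD1, chr2:197500061-197500090, minus strand: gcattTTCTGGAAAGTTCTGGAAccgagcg
CHORDC1, chr11:90223083-90223112, minus strand: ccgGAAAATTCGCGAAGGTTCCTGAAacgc
DNAJA1, chr9:33025263-33025292, plus strand, over the start site: ggcgcgccgggcgGAACTTTCCAGAAcgct
In HSPD1 and CHORDC1 several matches overlapped and are in capitals as 1 run, and HSP90AB1 held a match farther upstream that is not shown. GENCODE v29 places the HSPA6, DNAJB6 and HSP90AB1 stretches outside any exon, and the others within an exon of at least 1 transcript. With only 2 units, GAANNTTC or TTCNNGAA, which also match inside the 3-unit letters, 21 of the 35 genes (60%) had a match in any window, against 16.2% of all genes, and 44.9% of the 49 windows of these genes against 13.5% of all windows.

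HSPH1, whose rise on day 0 of Ca2+-Sen is described below, is shown for contrast. Its single window held none of the letters searched for.
HSPH1, chr13:31162389-31162638, minus strand, upstream of the start: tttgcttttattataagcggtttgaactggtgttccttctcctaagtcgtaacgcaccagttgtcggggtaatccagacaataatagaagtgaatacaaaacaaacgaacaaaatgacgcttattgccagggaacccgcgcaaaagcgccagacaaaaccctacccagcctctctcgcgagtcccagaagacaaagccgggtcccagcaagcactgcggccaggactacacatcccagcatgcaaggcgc
On day 0 of Ca2+-Sen, 23% of all tested genes were called higher and 25.5% lower. Of the 8 genes with 3 units, 4 were called higher and 1 lower (median log2 fold change 0.53). Of the 10 tested genes with 2 units only, 4 were higher and 4 lower (median 0.12), and of the 14 with no match 10 were higher and 2 lower (median 0.36). Letters in these windows are a description of sequence, and the use of a site was not tested. CRYAB, HSPB2, FKBP4, HSPA14 and HSF1 had no window in the RefSeq table used.

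Levels are mean normalized read counts of both libraries of a group, put on 1 scale, recovered from the tables, and can be compared between groups for a gene but not between genes. Calls rest on an adjusted p under 0.05, for which the Wald p-values of each table of the authors were adjusted after Benjamini and Hochberg across all 15479 tested genes. The untreated libraries held 15.4 M and 18.8 M counted reads and the others 19.1 M to 58.0 M. A value marked log2 is a log2 fold change against untreated cells, or the difference of 2 such values. The median SE of the 35 genes was larger in RS than in any other comparison. All 7 fibroblast markers checked (COL1A1, COL1A2, COL3A1, VIM, THY1, PDGFRB and DCN) were present, while the 3 epithelial and the 4 white blood cell markers had means under 10. Since whole cultures were sequenced, fewer cells with an RNA and less of it per cell cannot be told apart.

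Immediately after the 24-h treatments, the heat shock genes had the most calls in Ca2+-Sen, as did all tested genes. Of the 35 genes, 80% were called in Ca2+-Sen (48.5% of all tested genes), 65.7% in PMD-Sen (38.3%) and 37.1% in DDR-Sen (26.7%). Here and below, all tested genes were not matched to the 35 in level, on which the SE and the share called can depend. Counts with a minimum size of change are given further on. The day 0 libraries held 52.1 M and 28.4 M counted reads in Ca2+-Sen, 23.8 M and 21.8 M in PMD-Sen, and 52.4 M and 45.9 M in DDR-Sen. On day 0, 20 of the 35 genes were called higher in Ca2+-Sen and 8 lower, while 23% of all tested genes were higher and 25.5% lower. PMD-Sen on day 0 had 13 higher and 10 lower (all tested genes 19% and 19.3%). Scaling the fold changes by the summed level of each group gave 15 and 7, without a share of all tested genes under that scaling to set beside them. DDR-Sen on day 0 had 6 higher and 7 lower (all tested genes 12.5% and 14.2%). The median log2 fold change over the 35 genes was 0.35 in Ca2+-Sen, 0.10 in PMD-Sen and -0.14 in DDR-Sen, and over all tested genes it was -0.028, -0.0056 and -0.0045. On the same day of Ca2+-Sen the 3 endothelial markers summed to a level of 220 against 46.4 in untreated cells, most of the rise in PECAM1 (from 2.77 to 136) and with CDH5 near 0. The 4 white blood cell markers summed to 15.9 against 0.512, of which ITGAM made up 15.0. Of the 7 fibroblast markers, 6 were called lower and 1 (PDGFRB, 12762 against 8778 in untreated cells) higher. On days 0, 1 and 2 of PMD-Sen, 5, 5 and 6 of the 7 fibroblast markers were called lower (median log2 fold change -0.96, -1.08 and -0.86). COL1A2 was called higher on day 0 (323490 against 216298 in untreated cells) and VIM on day 2 (94709 against 79337). The summed level of the 7 markers was 641181, 392011 and 390593 against 740242 in untreated cells. DDR-Sen had white blood cell markers at a sum of 18.4 to 27.7 on all 8 days, most of it PTPRC (16.8 to 24.8 against 0.267 in untreated cells). Its endothelial markers summed to 94.7, 108 and 99.3 on days 0, 1 and 6, and those of RS to 94.6. Most of these sums was VWF (79.5 and 86.3 on days 0 and 1 of DDR-Sen, 43.6 in untreated cells), which was called in no comparison. Endothelial markers also summed to 79.5 on day 6 of PMD-Sen and 82.1 on day 1 of Ca2+-Sen. The part of these markers' cells in the heat shock genes' values was not tested.

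**Figure D1:**
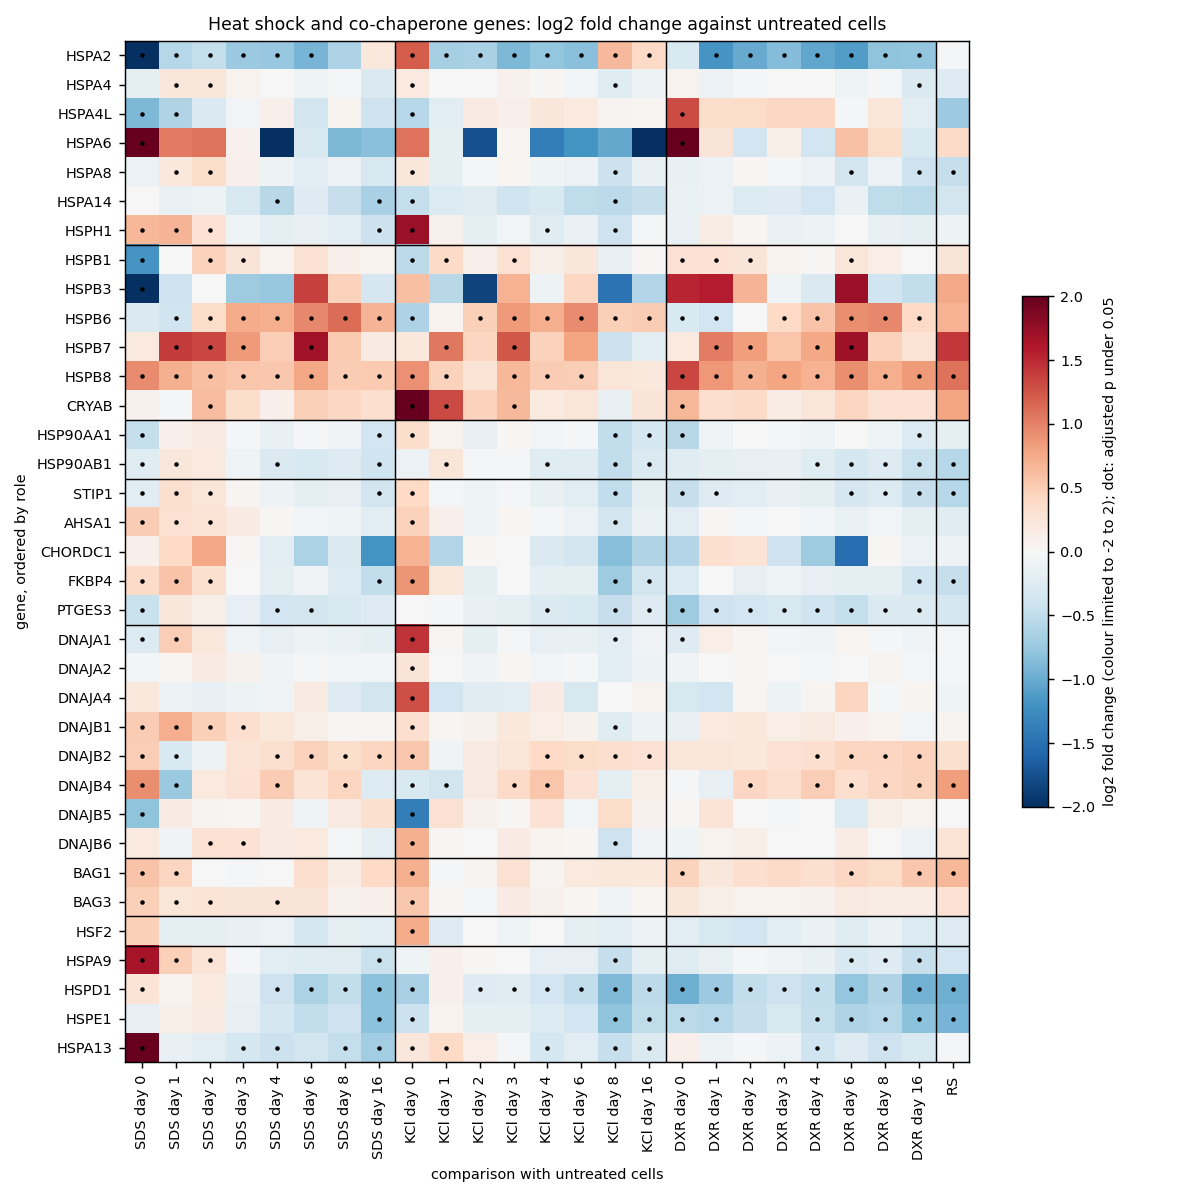
Log2 fold change of the 35 tested genes (rows, by role) in the 25 comparisons with untreated cells (columns), in colour from -2 (blue) to 2 (red), with a dot where the adjusted p was under 0.05. Day 0 of each inducer differs from the later days, the lower rows HSPD1 and HSPE1 turn blue on late days, and HSPB8 is red throughout.

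On days 1 and 2, PMD-Sen had more genes higher than lower, with 14 of 35 higher and 5 lower on day 1 (all tested genes 9.25% and 9.51%) and 15 higher and 1 lower, HSPA2, on day 2 (all tested genes 8.43% and 6.69%). Ca2+-Sen had 6 higher and 2 lower on day 1 (all tested genes 5.12% and 6.81%), and DDR-Sen 3 higher and 6 lower (all tested genes 8.12% and 10.5%). In Ca2+-Sen the calls pointed down on day 8, with 3 higher and 17 lower (all tested genes 14.9% and 17%). Day 6 of Ca2+-Sen had 3 higher and 2 lower (all tested genes 4.45% and 5.23%). Day 8 stood apart from its neighbours: 9.68%, 31.9% and 11.3% of all tested genes were called on days 6, 8 and 16 of Ca2+-Sen. On day 8 PMD-Sen had 4 higher and 2 lower (all tested genes 5.47% and 5.77%), and DDR-Sen 4 higher and 8 lower (all tested genes 9.83% and 11.2%).

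In the senescent cells of day 16, 3 of the 35 genes were higher and 10 lower in PMD-Sen (all tested genes 9.26% and 11%). Ca2+-Sen had 3 higher and 7 lower (all tested genes 5.47% and 5.82%), and DDR-Sen 5 higher and 11 lower (all tested genes 12.7% and 16%). RS had 3 higher and 6 lower (all tested genes 11.2% and 11%). When a call also had to reach a size of 1 on the log2 scale, 6 of the 35 were called on day 0 of PMD-Sen (14.6% of all tested genes), 6 on day 0 of Ca2+-Sen (17.6%), 3 on day 0 of DDR-Sen (7.84%) and 1 in RS (9.93%). None passed it on day 16 of PMD-Sen (7.15%), Ca2+-Sen (1.93%) or DDR-Sen (9.41%). The share of calls per comparison is set beside that of all tested genes in the plot of percentages.

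**Figure D2:**
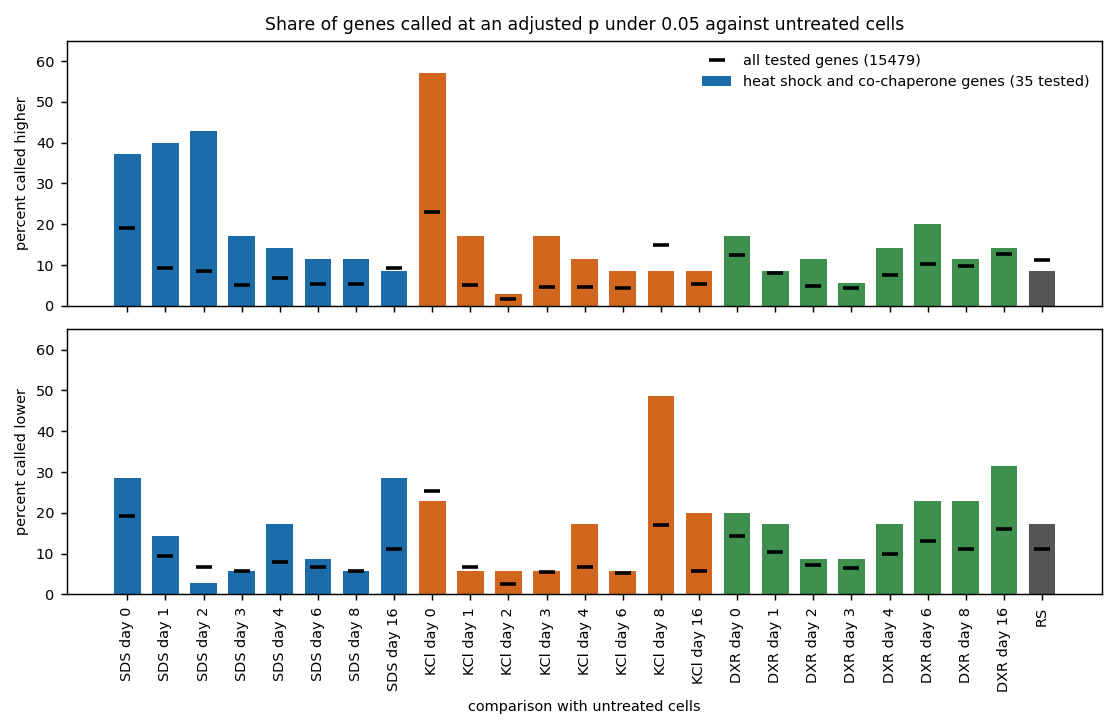
Percent of the 35 heat shock and co-chaperone genes (bars) and of all 15479 tested genes (black dashes) called higher (upper panel) and lower (lower panel) than in untreated cells at an adjusted p under 0.05, in 25 comparisons. The bars for higher genes stand far above the dashes on days 0 to 2 after SDS and on day 0 after KCl, and the tallest bar for lower genes is that of KCl day 8. The genes behind the dashes were not matched to the 35 in level.

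Among the HSP70 and HSP110 genes, HSPH1, an HSP110 that exchanges the nucleotide of HSP70, was called higher on day 0 of Ca2+-Sen and on days 0 to 2 of PMD-Sen. HSPH1 had a level of 5539.6 in untreated cells and of 8795, 8822, 6746, 5198, 4899, 5004, 4739 and 4095 on days 0 to 4, 6, 8 and 16 of PMD-Sen. HSPH1 was at 18237, 5871, 4898, 5341, 4666, 5055, 4168 and 5451 on the same days of Ca2+-Sen. In DDR-Sen HSPH1 was at 5049, 6131, 5682, 5036, 5173, 5516, 5006 and 4819.7, and in RS at 5151. The top of this range was day 0 of Ca2+-Sen, and the bottom day 16 of PMD-Sen. The log2 fold change was 1.72 log2 (SE 0.082, adjusted p = 2.1e-95) on day 0 of Ca2+-Sen and 0.67 log2 (SE 0.10, adjusted p = 9.4e-10) on day 0 of PMD-Sen, and on day 1 it was still 0.67 log2 (SE 0.089, adjusted p = 2.2e-12) in PMD-Sen. DDR-Sen gave -0.13 log2 (SE 0.11, adjusted p = 0.43) on day 0. By day 16 HSPH1 was below the untreated level in PMD-Sen, at -0.44 log2 (SE 0.16, adjusted p = 0.031).

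HSPA2, an HSP70 best known from the testis, moved in opposite directions after SDS and KCl. HSPA2 had a level of 1063 in untreated cells and of 143, 714, 761, 633, 632, 558, 689.6 and 1227 on days 0 to 4, 6, 8 and 16 of PMD-Sen. HSPA2 was at 2452, 673, 679, 569.8, 622, 593, 1664 and 1401 on the same days of Ca2+-Sen. In DDR-Sen HSPA2 was at 860.3, 471, 528, 587, 515, 490.1, 609 and 618, and in RS at 1034. HSPA2 was thus highest on day 0 of Ca2+-Sen and lowest on day 0 of PMD-Sen. On day 0 its fold change was -2.90 log2 (SE 0.21, adjusted p = 6.5e-43) in PMD-Sen and 1.21 log2 (SE 0.12, adjusted p = 7.1e-21) in Ca2+-Sen. From day 1 to day 6 it was lower than in untreated cells after each inducer, and in Ca2+-Sen it was again higher on day 8, at 0.65 log2 (SE 0.13, adjusted p = 3.9e-06), and on day 16. It was called in 21 of the 25 comparisons, 3 times higher and 18 times lower, and in RS it stood at -0.041 log2 (SE 0.26, adjusted p = 0.94).

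HSPA4L, another HSP110, was high on day 0 of DDR-Sen. HSPA4L had a level of 551 in untreated cells and of 295, 362, 453, 529, 590.0, 425, 578 and 411 on days 0 to 4, 6, 8 and 16 of PMD-Sen. HSPA4L was at 369, 474, 621, 589, 641, 634, 574 and 567 on the same days of Ca2+-Sen. In DDR-Sen HSPA4L was at 1362, 699.8, 709.6, 736, 736, 535, 652 and 474, and in RS at 334. No group was higher than day 0 of DDR-Sen or lower than day 0 of PMD-Sen. The rise in DDR-Sen was 1.31 log2 (SE 0.20, adjusted p = 1.2e-09), whereas PMD-Sen gave -0.90 log2 (SE 0.22, adjusted p = 0.00025) and Ca2+-Sen -0.58 log2 (SE 0.18, adjusted p = 0.0046). From day 1 on, the gene was not called in DDR-Sen. The related HSPA4 stayed between 7286 and 10459.7 in all groups and was called higher in 3 comparisons and lower in 2.

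HSPA6 encodes an HSP70 that unstressed cells hardly make. HSPA6 had a level of 8.88 in untreated cells and of 74.8, 18.3, 18.8, 9.38, 1.87, 7.13, 4.77 and 4.99 on days 0 to 4, 6, 8 and 16 of PMD-Sen. HSPA6 was at 18.7, 7.84, 2.65, 9.11, 3.4, 3.89, 4.39 and 2.09 on the same days of Ca2+-Sen. In DDR-Sen HSPA6 was at 35.0, 10.6, 6.85, 9.54, 6.79, 13.3, 11.4 and 7.21, and in RS at 11.6. The highest level was that of day 0 of PMD-Sen and the lowest that of day 4 of PMD-Sen. Its few reads rose on day 0 of PMD-Sen, with a fold change of 3.10 log2 (SE 0.74, adjusted p = 0.00015), and on day 0 of DDR-Sen, with 2.00 log2 (SE 0.80, adjusted p = 0.048), but in Ca2+-Sen the value of 1.08 log2 (SE 0.97, adjusted p = 0.38) did not pass the test. At later times it stayed low and was not called. Its median SE of 1.23 over the comparisons leaves these levels poorly fixed, and HSPA7, a near-identical pseudogene, can share its reads.

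HSPA8, the constitutive HSP70 of the cytosol, stayed within a narrow range. HSPA8 had a level of 52531 in untreated cells and of 48238, 60919, 67022, 56141, 48970.1, 45215, 48539.5 and 42113 on days 0 to 4, 6, 8 and 16 of PMD-Sen. HSPA8 was at 61359, 46044, 50974, 53885, 49651, 48326, 38876 and 47456 on the same days of Ca2+-Sen. In DDR-Sen HSPA8 was at 47442, 48319, 53872, 51356, 48475, 40943, 48294 and 39338, and in RS at 38277. Its peak was day 2 of PMD-Sen, and its lowest point RS. It was higher on day 1 of PMD-Sen (0.21 log2, SE 0.074, adjusted p = 0.024), on day 2 of PMD-Sen and on day 0 of Ca2+-Sen, and lower on day 8 of Ca2+-Sen, on days 6 and 16 of DDR-Sen and in RS (-0.46 log2, SE 0.13, adjusted p = 0.0042). HSPA14, an HSP70 relative that works at the ribosome, was lower in 4 comparisons and higher in 0, at 391 in untreated cells and between 249 and 395 elsewhere.

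**Figure D3:**
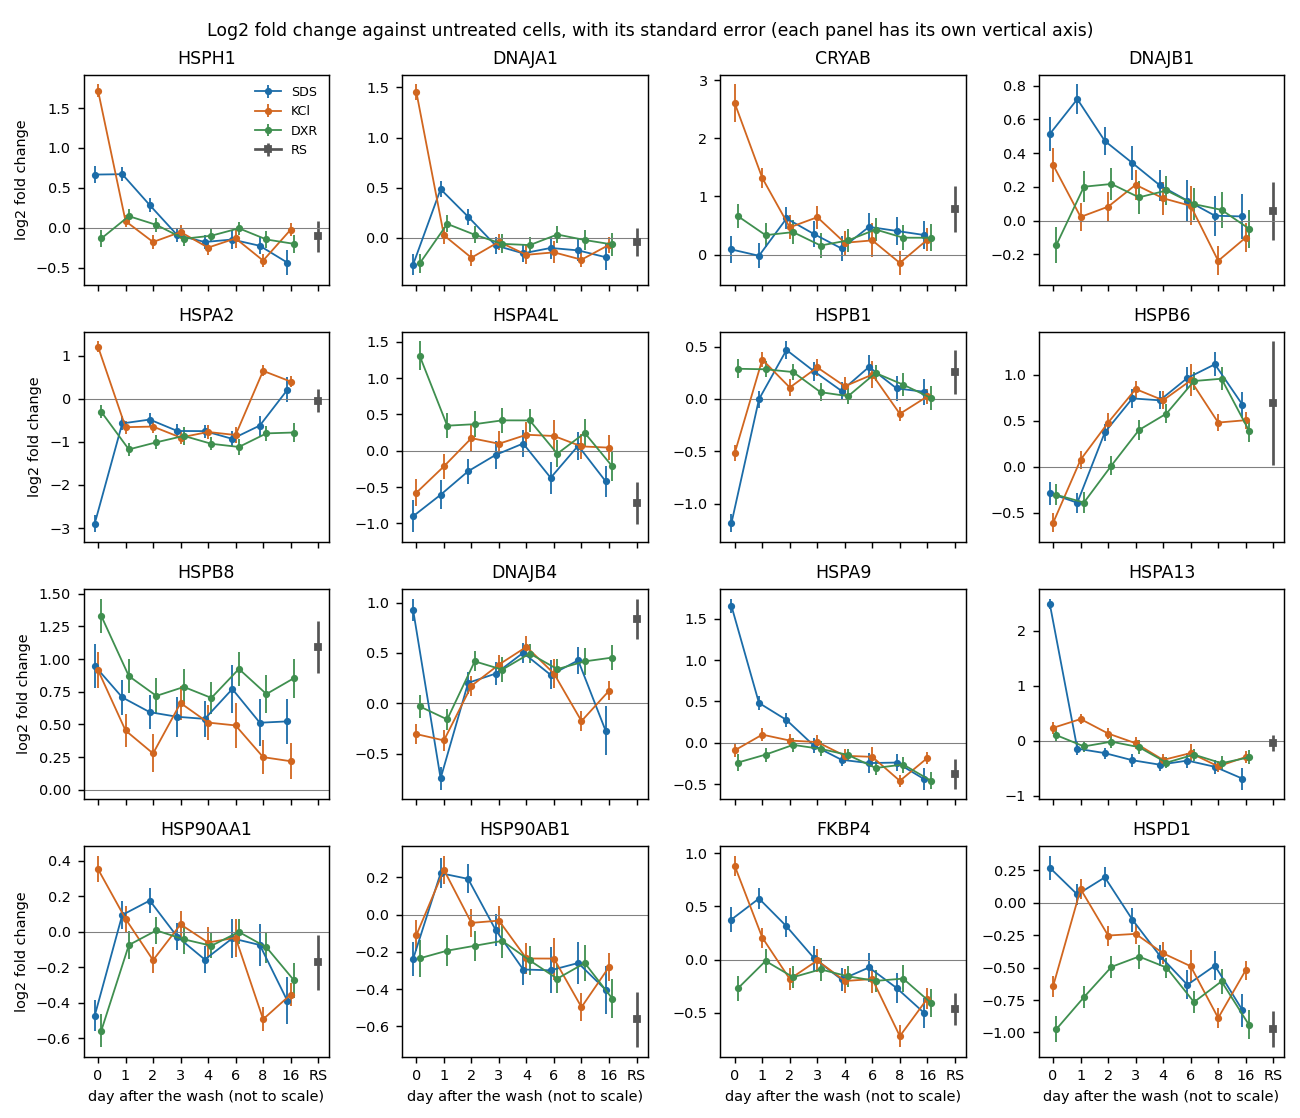
Log2 fold change against untreated cells with its standard error (bars) for 16 of the genes, by day after SDS (blue), KCl (orange) and DXR (green), with RS as a grey square. HSPH1, DNAJA1 and CRYAB peak on day 0 of KCl, HSPA9 and HSPA13 on day 0 of SDS and HSPA4L on day 0 of DXR, and HSPB6 is below 0 at first and above 0 from day 3 on.

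Among the small heat shock proteins, HSPB8 and HSPB6 were higher than in untreated cells at most times. HSPB8, which works with BAG3 to send misfolded protein to autophagy, was called higher in 22 of the 25 comparisons and lower in none. HSPB8 levels were 1607, 1358, 1257, 1227, 1213, 1422, 1190.2 and 1197 over the days of PMD-Sen and 2094, 1522, 1370.2, 1437, 1356, 1581, 1384 and 1506 over those of DDR-Sen, from 833 in untreated cells. In Ca2+-Sen they were 1572, 1141, 1009, 1319, 1189, 1172, 990.2 and 969, and in RS 1775. The untreated level was the lowest of all 26 groups, the log2 fold change was largest on day 0 of DDR-Sen at 1.33 log2 (SE 0.13, adjusted p = 1.1e-21), and in RS it was 1.09 log2 (SE 0.20, adjusted p = 1.3e-06). The 3 comparisons in which it was not called were days 2, 8 and 16 of Ca2+-Sen.

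HSPB6 (HSP20) began low and ended high. HSPB6 stood at 2784 in untreated cells, and at 2279, 2120.4, 3607, 4656, 4590.0, 5430.4, 6023 and 4441 over the days of PMD-Sen. Ca2+-Sen gave 1824, 2936, 3880.2, 4996, 4590.5, 5333, 3881 and 3951 for HSPB6. Its level in DDR-Sen was 2252, 2126, 2808, 3671, 4153, 5307, 5401 and 3651. On day 0 HSPB6 was called lower in Ca2+-Sen (-0.61 log2, SE 0.10, adjusted p = 3.1e-08) and DDR-Sen (-0.31 log2, SE 0.11, adjusted p = 0.032), and from day 3 to day 16 it was called higher after every inducer, up to 1.11 log2 (SE 0.13, adjusted p = 5.6e-15) on day 8 of PMD-Sen. In RS the value of 0.69 log2 (SE 0.67, adjusted p = 0.53) came with a wide error and was not called.

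HSPB7, known from heart and muscle, was called higher against untreated cells on day 1 after each inducer, and on day 0 after none. In DDR-Sen HSPB7 was not among the 3 genes called between days 0 and 1, which are described below. HSPB7 had a level of 341 in untreated cells and of 391, 898, 863, 616, 481, 1094, 490.0 and 384 on days 0 to 4, 6, 8 and 16 of PMD-Sen. HSPB7 was at 396, 705, 461, 809.7, 469, 591, 254 and 291 on the same days of Ca2+-Sen. In DDR-Sen HSPB7 was at 389, 694, 606, 502, 581, 1099, 469 and 412, and in RS at 910.3. Of the 26 groups, day 6 of DDR-Sen was the highest and day 8 of Ca2+-Sen the lowest. On day 0 the log2 fold change was 0.20 log2 (SE 0.28) in PMD-Sen, 0.22 log2 (SE 0.24) in Ca2+-Sen and 0.19 log2 (SE 0.27) in DDR-Sen, none of them called. A day later it was called higher after each inducer, at 1.40 log2 (SE 0.21, adjusted p = 9.4e-10), 1.05 log2 (SE 0.21, adjusted p = 1.7e-05) and 1.03 log2 (SE 0.21, adjusted p = 2.2e-05) in the same order. On days 8 and 16 it was not called in any comparison, and RS was at 1.41 log2 (SE 1.00, adjusted p = 0.35).

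CRYAB, the alpha-B crystallin, gave the largest rise of the 35 genes in Ca2+-Sen. CRYAB had a level of 549 in untreated cells and of 584, 541, 844, 702, 591, 764, 729 and 694 on days 0 to 4, 6, 8 and 16 of PMD-Sen. CRYAB was at 3337, 1367, 759, 857, 632, 651, 497 and 655 on the same days of Ca2+-Sen. In DDR-Sen CRYAB was at 866, 692, 717, 611, 649.9, 740.1, 671 and 671, and in RS at 946. The top of this range was day 0 of Ca2+-Sen, and the bottom day 8 of Ca2+-Sen. The log2 fold change on day 0 was 2.60 log2 (SE 0.33, adjusted p = 3e-14) in Ca2+-Sen, 0.66 log2 (SE 0.20, adjusted p = 0.0071) in DDR-Sen and 0.088 log2 (SE 0.23, adjusted p = 0.81) in PMD-Sen. In Ca2+-Sen it was still 1.32 log2 (SE 0.18, adjusted p = 1.4e-11) on day 1 and was not called on day 2. CRYAB overlaps HSPB2 and C11orf52 on the other strand, and how the counting treated strand is not given in the sources used here, but the overlapping genes had mean levels under 1.

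HSPB1 (HSP27), which is made in many tissues, fell on day 0 of PMD-Sen and of Ca2+-Sen and recovered. HSPB1 was at 18108 in untreated cells, 7967 on day 0 of PMD-Sen, 12662 on day 0 of Ca2+-Sen and 22110.5 on day 0 of DDR-Sen. The log2 fold changes were -1.18 log2 (SE 0.089, adjusted p = 3.1e-38), -0.52 log2 (SE 0.078, adjusted p = 3.9e-10) and 0.29 log2 (SE 0.092, adjusted p = 0.0096). Its highest level, 25039.5, came on day 2 of PMD-Sen, and it was called higher in 8 comparisons in all. HSPB3, a muscle protein, was near the limit of detection: it had a level of 11.0 in untreated cells and was under the level that 3 reads would give (1.87) on day 0 of PMD-Sen, at least 5.85-fold lower. HSPB3 ranged up to 35.8 on day 6 of DDR-Sen and was called in no other comparison.

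Both cytosolic HSP90 genes were lower on day 16 of each inducer (11%, 5.82% and 16% of all tested genes in PMD-Sen, Ca2+-Sen and DDR-Sen). On day 0 the inducible form HSP90AA1 separated the inducers. HSP90AA1 had a level of 46893 in untreated cells and of 33799.9, 50084, 52988, 46011, 42089, 45719, 44545 and 35824 on days 0 to 4, 6, 8 and 16 of PMD-Sen. HSP90AA1 was at 59900.2, 49339, 41982, 48279, 44986, 45835, 33334 and 36703 on the same days of Ca2+-Sen. In DDR-Sen HSP90AA1 was at 31893, 44539.9, 47155, 45539, 44416, 46880.1, 44153 and 38816, and in RS at 41608. HSP90AA1 was thus highest on day 0 of Ca2+-Sen and lowest on day 0 of DDR-Sen. The day 0 log2 fold change was 0.35 log2 (SE 0.075, adjusted p = 1e-05) in Ca2+-Sen, -0.47 log2 (SE 0.089, adjusted p = 7.5e-07) in PMD-Sen and -0.56 log2 (SE 0.092, adjusted p = 3.4e-08) in DDR-Sen. HSP90AA1 was lower again on day 8 of Ca2+-Sen and on day 16 of each inducer, and in RS it was at -0.17 log2 (SE 0.16, adjusted p = 0.49).

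HSP90AB1 is the constitutive form. HSP90AB1 had a level of 36633 in untreated cells and of 31041, 42752, 41854, 34600.4, 29859, 29773, 30588 and 27679.9 on days 0 to 4, 6, 8 and 16 of PMD-Sen. HSP90AB1 was at 33952, 43292, 35527, 35829, 31111, 31101, 25950.2 and 30137 on the same days of Ca2+-Sen. In DDR-Sen HSP90AB1 was at 31135, 32031, 32622, 33216, 30882, 28856, 30589 and 26792, and in RS at 24798. No group was higher than day 1 of Ca2+-Sen or lower than RS. It was called higher on day 1 of PMD-Sen (0.22 log2, SE 0.079, adjusted p = 0.03) and of Ca2+-Sen (0.24 log2, SE 0.075, adjusted p = 0.015), and lower in 11 comparisons. On day 16 the values were -0.40 log2 (SE 0.13, adjusted p = 0.011) in PMD-Sen, -0.28 log2 (SE 0.073, adjusted p = 0.0019) in Ca2+-Sen and -0.45 log2 (SE 0.11, adjusted p = 0.0002) in DDR-Sen. In RS the fold change was -0.56 log2 (SE 0.15, adjusted p = 0.0015). Under scaling by group totals (fold changes less the ratio of the summed levels of both groups), HSP90AB1 on day 0 of PMD-Sen and HSP90AA1 on day 16 of DDR-Sen were no longer called (adjusted p = 0.059 and 0.095).

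Of the 5 HSP90 co-chaperones, 3 were called higher on day 0 of Ca2+-Sen and none lower (all tested genes 23% and 25.5%). FKBP4 (FKBP52), a prolyl isomerase that joins HSP90 on steroid receptors, had the widest range among those called. FKBP4 had a level of 2323 in untreated cells and of 3018, 3459, 2887, 2347, 2042, 2208, 1934 and 1643 on days 0 to 4, 6, 8 and 16 of PMD-Sen. FKBP4 was at 4279, 2683, 2047, 2311, 2023, 2047, 1412 and 1803 on the same days of Ca2+-Sen. In DDR-Sen FKBP4 was at 1929, 2302, 2072, 2179.9, 2084, 2023, 2053 and 1756, and in RS at 1682. The highest level was that of day 0 of Ca2+-Sen and the lowest that of day 8 of Ca2+-Sen. FKBP4 was 0.88 log2 (SE 0.094, adjusted p = 1.9e-19) on day 0 of Ca2+-Sen and was 0.38 log2 (SE 0.11, adjusted p = 0.0034) and 0.57 log2 (SE 0.099, adjusted p = 1.5e-07) on days 0 and 1 of PMD-Sen. It was -0.72 log2 (SE 0.10, adjusted p = 3.4e-11) on day 8 of Ca2+-Sen, and was lower on day 16 of each inducer and in RS (-0.47 log2, SE 0.15, adjusted p = 0.013).

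STIP1 (HOP), which links HSP70 to HSP90, split in the same way as HSP90AA1. STIP1 had a level of 6793 in untreated cells and of 5782, 8444, 8075, 7025, 6301, 5952, 6039 and 5277 on days 0 to 4, 6, 8 and 16 of PMD-Sen. STIP1 was at 8996, 6635, 6429.7, 6695, 6111, 5838, 4836 and 6001 on the same days of Ca2+-Sen. In DDR-Sen STIP1 was at 4929, 5677, 5857, 6129, 5989, 5378, 5627 and 4944, and in RS at 4579.8. Its peak was day 0 of Ca2+-Sen, and its lowest point RS. On day 0 STIP1 was higher in Ca2+-Sen (0.40 log2, SE 0.087, adjusted p = 1.4e-05) and lower in PMD-Sen (-0.23 log2, SE 0.097, adjusted p = 0.045) and DDR-Sen (-0.46 log2, SE 0.10, adjusted p = 3.8e-05), although the PMD-Sen call was lost under median centring (fold changes less their median over the tested genes) and under scaling by group totals (adjusted p = 0.051 and 0.090). In PMD-Sen it was higher on days 1 and 2, and in RS it was lower, at -0.57 log2 (SE 0.14, adjusted p = 0.00086). STIP1 was lower in 9 comparisons.

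CHORDC1, whose promoter held the longest run of heat shock element letters shown above, had a median SE of 0.67 and was called in none of the 25 comparisons. CHORDC1 had a level of 419 in untreated cells and of 449, 553, 716, 426, 357, 271, 341 and 182 on days 0 to 4, 6, 8 and 16 of PMD-Sen. CHORDC1 was at 681, 280.3, 429, 421, 342, 325, 232 and 275 on the same days of Ca2+-Sen. In DDR-Sen CHORDC1 was at 278, 524, 509, 314, 256, 146, 423 and 387, and in RS at 389. Of the 26 groups, day 2 of PMD-Sen was the highest and day 6 of DDR-Sen the lowest. Its highest log2 fold change was 0.77 log2 (SE 0.56, adjusted p = 0.45) on day 2 of PMD-Sen and its lowest -1.52 log2 (SE 1.21, adjusted p = 0.44) on day 6 of DDR-Sen. AHSA1, which speeds the ATPase of HSP90, was higher on days 0, 1 and 2 of PMD-Sen and on day 0 of Ca2+-Sen (range of level 2052 to 3789). PTGES3 (p23) was never called higher and was lower in 14 comparisons, among them all 8 days of DDR-Sen, with its lowest level, 4259.9 against 7009 in untreated cells, on day 0 (-0.72 log2, SE 0.10, adjusted p = 5.9e-11).

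Of the 8 J-domain genes, 6 were called higher and 2 lower on day 0 of Ca2+-Sen (all tested genes 23% and 25.5%). DNAJA1, a main partner of HSP70, rose most. DNAJA1 had a level of 7725 in untreated cells and of 6408, 10806, 8930.3, 7321, 6929, 7194, 7074 and 6748 on days 0 to 4, 6, 8 and 16 of PMD-Sen. DNAJA1 was at 21142, 7855, 6723, 7508, 6862, 6979, 6633 and 7349 on the same days of Ca2+-Sen. In DDR-Sen DNAJA1 was at 6463, 8498, 7882, 7401, 7337, 7895, 7599 and 7371, and in RS at 7509.9. The top of this range was day 0 of Ca2+-Sen, and the bottom day 0 of PMD-Sen. DNAJA1 was at 1.45 log2 (SE 0.081, adjusted p = 4e-69) on day 0 of Ca2+-Sen, and at -0.27 log2 (SE 0.11, adjusted p = 0.029) and -0.26 log2 (SE 0.098, adjusted p = 0.035) on day 0 of PMD-Sen and DDR-Sen. On day 1 of PMD-Sen it was higher, at 0.48 log2 (SE 0.082, adjusted p = 7.9e-08). In RS and on day 16 its level was within the SE of the untreated cells or little beyond it, from -0.20 log2 (SE 0.13) in PMD-Sen to -0.041 log2 (SE 0.14) in RS, and it was not called.

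DNAJB1, the J-domain protein often used as a marker of the heat shock response, was higher over the first days of PMD-Sen. DNAJB1 was at 4524 in untreated cells and at 6455, 7449, 6272, 5731, 5228, 4909, 4616 and 4601 over the days of PMD-Sen. On the days of Ca2+-Sen DNAJB1 was at 5686, 4592, 4789.6, 5240.1, 4959, 4806, 3834 and 4219. The level of DNAJB1 in DDR-Sen was 4094, 5198, 5258, 4975, 5119, 4840.3, 4727 and 4375, and 4701 in RS. The calls were day 0 (0.51 log2, SE 0.10, adjusted p = 3.8e-06), day 1 (0.72 log2, SE 0.089, adjusted p = 3.8e-14), day 2 and day 3 of PMD-Sen and day 0 of Ca2+-Sen (0.33 log2, SE 0.10, adjusted p = 0.0037), and day 8 of Ca2+-Sen, where it was lower (-0.24 log2, SE 0.085, adjusted p = 0.019). DDR-Sen gave no call. The gene model of DNAJB1 overlaps TECR (mean level 1619) by 12686 bases on the other strand, and a share of TECR reads in the DNAJB1 values was not tested.

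DNAJB4, a close relative of DNAJB1, behaved otherwise. DNAJB4 had a level of 2367 in untreated cells and of 4504, 1411, 2724, 2901, 3349, 2875, 3181 and 1956 on days 0 to 4, 6, 8 and 16 of PMD-Sen. DNAJB4 was at 1913, 1833, 2667, 3088, 3492, 2904, 2093 and 2578 on the same days of Ca2+-Sen. In DDR-Sen DNAJB4 was at 2315, 2117, 3158, 2979, 3332, 2993, 3157 and 3241, and in RS at 4225. DNAJB4 was thus highest on day 0 of PMD-Sen and lowest on day 1 of PMD-Sen. It was at 0.93 log2 (SE 0.11, adjusted p = 9.4e-16) on day 0 of PMD-Sen and at -0.75 log2 (SE 0.11, adjusted p = 8.3e-10) a day later, and on day 0 of Ca2+-Sen it was lower (-0.31 log2, SE 0.10, adjusted p = 0.0059). It was called higher in 11 comparisons, of which 9 were on day 3 or later or in RS, where it stood at 0.84 log2 (SE 0.20, adjusted p = 0.00023).

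DNAJB5 fell on day 0 of Ca2+-Sen and PMD-Sen. DNAJB5 had a level of 463 in untreated cells and of 265, 518, 481, 469, 519, 436, 527 and 579 on days 0 to 4, 6, 8 and 16 of PMD-Sen. DNAJB5 was at 177, 573, 490.0, 469, 563, 445, 596 and 490.1 on the same days of Ca2+-Sen. In DDR-Sen DNAJB5 was at 472, 560.3, 458, 448, 461, 385, 504 and 489, and in RS at 468. No group was higher than day 8 of Ca2+-Sen or lower than day 0 of Ca2+-Sen. The day 0 values were -1.39 log2 (SE 0.21, adjusted p = 1.6e-10) in Ca2+-Sen, -0.80 log2 (SE 0.22, adjusted p = 0.0012) in PMD-Sen and 0.029 log2 (SE 0.18, adjusted p = 0.94) in DDR-Sen, and DNAJB5 was called on no other day. DNAJA4 was called once, on day 0 of Ca2+-Sen, at 1.28 log2 (SE 0.38, adjusted p = 0.0024) (level 169 against 69.6). DNAJA4 overlaps WDR61 (mean level 941) by 4362 bases on the other strand. How the counting treated strand is not given, so reads of WDR61 may enter the DNAJA4 values, which was not tested. DNAJA2 was also called once, in the same comparison, at 0.26 log2 (SE 0.097, adjusted p = 0.019).

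DNAJB6, which keeps aggregation-prone proteins soluble, was higher on day 0 of Ca2+-Sen (0.71 log2, SE 0.087, adjusted p = 3.9e-15, level 8841 against 5408) and on days 2 and 3 of PMD-Sen, and lower on day 8 of Ca2+-Sen. DNAJB2, which also binds ubiquitin, was called higher in 14 comparisons, with levels between 1943 on day 1 of PMD-Sen and 3462 on day 0 of Ca2+-Sen. On day 16 DNAJB2 was higher after each inducer, at 0.43 log2 (SE 0.14, adjusted p = 0.012) in PMD-Sen, 0.28 log2 (SE 0.095, adjusted p = 0.029) in Ca2+-Sen and 0.46 log2 (SE 0.12, adjusted p = 0.001) in DDR-Sen. Day 1 of PMD-Sen was its single lower call (-0.30 log2, SE 0.11, adjusted p = 0.042).

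**Figure D4:**
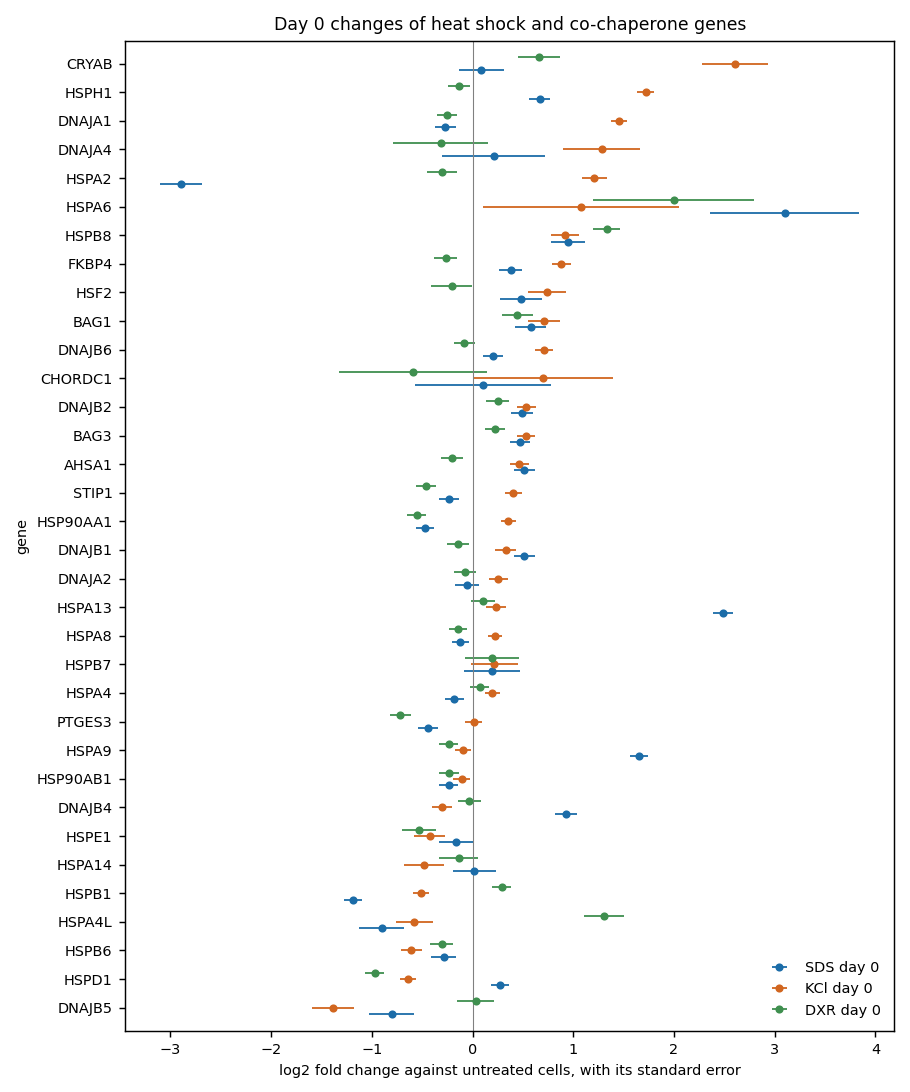
Log2 fold change on day 0 against untreated cells with its standard error for 34 of the 35 genes, ordered by the value after KCl (orange), with SDS in blue and DXR in green. HSPB3 is not drawn, because its reads after SDS were under the 3 that set the limit. KCl is rightmost for CRYAB, HSPH1, DNAJA1 and HSPA2, SDS for HSPA13, HSPA9 and DNAJB4, and DXR for HSPA4L.

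Both BAG genes were higher on day 0 of PMD-Sen and Ca2+-Sen, where 19% and 23% of all tested genes were higher. BAG3 had a level of 4263 in untreated cells and of 5906, 5019.7, 5129.8, 5095, 5124, 5085, 4533 and 4564 on days 0 to 4, 6, 8 and 16 of PMD-Sen. BAG3 was at 6163, 4347, 4188, 4798, 4519, 4396, 4053 and 4366 on the same days of Ca2+-Sen. In DDR-Sen BAG3 was at 4979.9, 4621, 4488, 4469, 4535, 4802, 4705 and 4736, and in RS at 5214. The highest level was that of day 0 of Ca2+-Sen and the lowest that of day 8 of Ca2+-Sen. BAG3, the partner of HSPB8 in autophagy, was at 0.47 log2 (SE 0.10, adjusted p = 1.4e-05) on day 0 of PMD-Sen and at 0.53 log2 (SE 0.091, adjusted p = 3.7e-08) on day 0 of Ca2+-Sen, and at 0.22 log2 (SE 0.10, adjusted p = 0.091) in DDR-Sen. BAG3 was called higher in 5 comparisons and lower in none.

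BAG1, which couples HSP70 to the proteasome, was called higher in 7 comparisons and lower in none. BAG1 had a level of 742 in untreated cells and of 1106, 999, 736, 726, 741, 937, 826 and 974 on days 0 to 4, 6, 8 and 16 of PMD-Sen. BAG1 was at 1215, 719, 771, 914, 773, 851, 857 and 862 on the same days of Ca2+-Sen. In DDR-Sen BAG1 was at 1009.8, 869.6, 939.9, 968, 927, 989.6, 959 and 1083, and in RS at 1176. Its peak was day 0 of Ca2+-Sen, and its lowest point day 1 of Ca2+-Sen. It was higher on day 0 of each inducer, at 0.58 log2 (SE 0.16, adjusted p = 0.00094) in PMD-Sen, 0.71 log2 (SE 0.16, adjusted p = 2.8e-05) in Ca2+-Sen and 0.44 log2 (SE 0.15, adjusted p = 0.018) in DDR-Sen. RS also had a higher level (0.67 log2, SE 0.24, adjusted p = 0.03), as did day 16 of DDR-Sen (0.55 log2, SE 0.16, adjusted p = 0.0028).

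HSF2, a second heat shock factor, was called once. HSF2 had a level of 353 in untreated cells and of 493, 308, 314, 319, 326, 276, 309 and 304 on days 0 to 4, 6, 8 and 16 of PMD-Sen. HSF2 was at 590.5, 297, 355, 333, 353, 309, 302 and 328 on the same days of Ca2+-Sen. In DDR-Sen HSF2 was at 306, 284, 270.3, 301, 323, 299, 322 and 294, and in RS at 296. Of the 26 groups, day 0 of Ca2+-Sen was the highest and day 2 of DDR-Sen the lowest. The call was on day 0 of Ca2+-Sen, at 0.74 log2 (SE 0.19, adjusted p = 0.00037). On day 0 of PMD-Sen it was at 0.48 log2 (SE 0.21, adjusted p = 0.06), which passed the threshold when values were scaled by group totals (adjusted p = 0.043).

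Apart from HSPA6, the largest rises on day 0 of PMD-Sen were those of HSPA13 and HSPA9. HSPA13 had a level of 2096 in untreated cells and of 11716, 1897, 1792, 1638, 1549, 1631, 1509 and 1299.6 on days 0 to 4, 6, 8 and 16 of PMD-Sen. HSPA13 was at 2465, 2753, 2294, 2029.6, 1646, 1793, 1517 and 1707 on the same days of Ca2+-Sen. In DDR-Sen HSPA13 was at 2246, 1950.1, 2070.1, 1934, 1589.9, 1758, 1578 and 1699.7, and in RS at 2037. The top of this range was day 0 of PMD-Sen, and the bottom day 16 of PMD-Sen. HSPA13, an HSP70 of the endoplasmic reticulum, was at 2.48 log2 (SE 0.098, adjusted p = 9.4e-138) on day 0 of PMD-Sen, and at 0.23 log2 (SE 0.10, adjusted p = 0.049) and 0.10 log2 (SE 0.12, adjusted p = 0.62) on that day of Ca2+-Sen and DDR-Sen. A day later it was back at -0.14 log2 (SE 0.11, adjusted p = 0.48) in PMD-Sen, and from day 3 on it was lower in 9 comparisons.

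HSPA9 (mortalin), the HSP70 of mitochondria, was also highest on day 0 of PMD-Sen but was still called higher on days 1 and 2. HSPA9 had a level of 8120.1 in untreated cells and of 25585, 11346, 9836, 7925, 7044, 6851, 6881 and 5991 on days 0 to 4, 6, 8 and 16 of PMD-Sen. HSPA9 was at 7623, 8698, 8276, 8171, 7286, 7218, 5901 and 7151 on the same days of Ca2+-Sen. In DDR-Sen HSPA9 was at 6884, 7355, 7981, 7717, 7332, 6574, 6769 and 5919.7, and in RS at 6238. HSPA9 was thus highest on day 0 of PMD-Sen and lowest on day 8 of Ca2+-Sen. The log2 fold change was 1.66 log2 (SE 0.089, adjusted p = 5.1e-75) on day 0 of PMD-Sen, 0.48 log2 (SE 0.084, adjusted p = 2.2e-07) on day 1 and 0.28 log2 (SE 0.079, adjusted p = 0.0056) on day 2. Neither Ca2+-Sen (-0.091 log2, SE 0.080, adjusted p = 0.37) nor DDR-Sen (-0.24 log2, SE 0.097, adjusted p = 0.053) was called higher on day 0. It was lower on day 8 of Ca2+-Sen, on day 16 of PMD-Sen and on days 6, 8 and 16 of DDR-Sen.

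HSPD1 (HSP60) and HSPE1 (HSP10), which form the mitochondrial chaperonin and share a promoter region, were lower late after every inducer and in RS. HSPD1 had a level of 10941 in untreated cells and of 13194, 11435, 12531, 9998, 8243, 7058, 7819.8 and 6165 on days 0 to 4, 6, 8 and 16 of PMD-Sen. HSPD1 was at 7007, 11771, 9184, 9266, 8351, 7794, 5912 and 7632 on the same days of Ca2+-Sen. In DDR-Sen HSPD1 was at 5571, 6606, 7767, 8208, 7739, 6434, 7189 and 5697, and in RS at 5576. No group was higher than day 0 of PMD-Sen or lower than day 0 of DDR-Sen. HSPD1 was called lower in 20 of the 25 comparisons and higher in 1, day 0 of PMD-Sen (0.27 log2, SE 0.091, adjusted p = 0.01). On day 0 of DDR-Sen it was at -0.97 log2 (SE 0.098, adjusted p = 1.3e-21), and at the end at -0.83 log2 (SE 0.13, adjusted p = 3.3e-09) in PMD-Sen, -0.52 log2 (SE 0.074, adjusted p = 2.7e-10) in Ca2+-Sen, -0.94 log2 (SE 0.11, adjusted p = 2e-15) in DDR-Sen and -0.97 log2 (SE 0.14, adjusted p = 1.3e-10) in RS.

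HSPE1 was at 832 in untreated cells and, on day 16, at 469.9 in PMD-Sen, 582 in Ca2+-Sen and 469 in DDR-Sen, with 435 in RS, the lowest of the 26 groups. It was called lower in 11 comparisons and higher in none, and on day 16 its log2 fold changes were -0.82 log2 (SE 0.20, adjusted p = 0.00041), -0.52 log2 (SE 0.16, adjusted p = 0.015) and -0.83 log2 (SE 0.18, adjusted p = 6.4e-05), with -0.94 log2 (SE 0.22, adjusted p = 0.0002) in RS. The gene models of HSPD1 and HSPE1 overlap by 3464 bases on opposite strands in GENCODE v29, so without strand their reads cannot be told apart there, and the 2 values are not independent to that extent.

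HSPA1A and HSPA1B, the main heat-inducible HSP70 genes, could not be followed. HSPA1A (chr6:31815464, start in GRCh38) was listed at 0 in 15 of the 26 groups and had its highest level, 1.04, on day 0 of Ca2+-Sen, where 3 reads over both libraries would give 1.04. HSPA1B was listed at 0 in 15 groups and reached 1.21 on day 1 of PMD-Sen, and HSPA1L was listed at 0 in all 26. HSPA1A and HSPA1B are near-identical copies, which counting of unique alignments can leave at 0. Neighbouring genes were low as well: of 159 protein-coding genes from 2.5 Mb before to 1.5 Mb after the start of HSPA1A, 120 (75.5%) had a mean level under 1, against 24.2% of 19462 protein-coding genes.

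Genes used in every cell also had low mean levels there, such as LSM2 (a splicing factor, listed at 0), CSNK2B (2.60) and BAG6, another co-chaperone (2.72). The listed values of HSPA1A, HSPA1B and HSPA1L are therefore given without any statement on the expression of these genes, and the cause was not tested. HSF1, the main heat shock factor, was listed at 0 in 9 groups and reached 3.81 in RS (3 reads would give 0.864), and all 8 protein-coding genes that start within 0.1 Mb after its start, itself included, had mean levels under 1, with DGAT1 at 0.0173. HSPB2 was listed at 0 in 20 groups and was under the level of 3 reads in all 26. The plot of levels around HSPA1A shows the stretch.

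**Figure D5:**
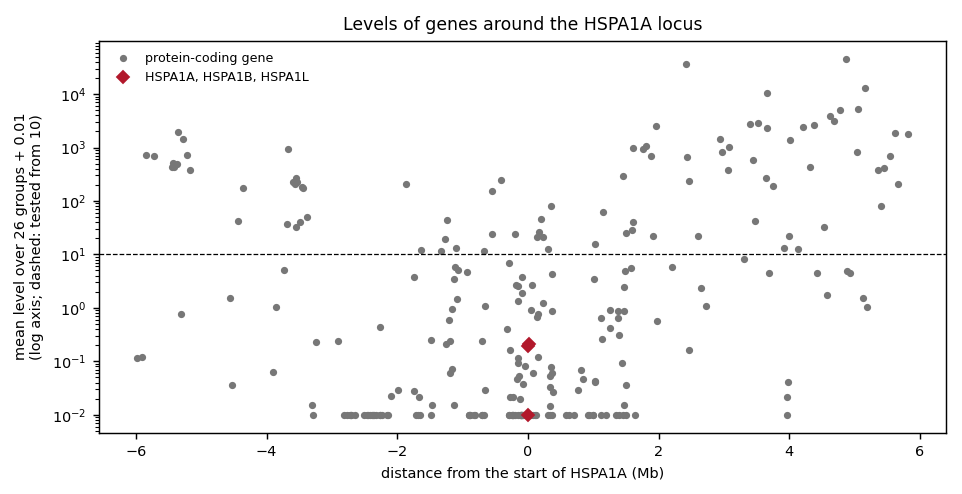
Mean level over the 26 groups (log axis, 0.01 added so that 0 can be drawn) of protein-coding genes within 6 Mb of the start of HSPA1A, by distance in Mb. HSPA1A, HSPA1B and HSPA1L (red diamonds) lie in a stretch where most genes are under 1, while genes farther than about 4 Mb away mostly lie above the dashed line at 10, from which genes were tested.

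To see which of these genes set the inducers apart, the log2 fold changes of 2 inducers on the same day were subtracted and tested against both SEs, adjusted over the 15479 tested genes. The inducers share their untreated libraries, so the error of those libraries enters both SEs and the test gives too few calls. On day 0, 17 of 35 genes differed between PMD-Sen and Ca2+-Sen (36.9% of all tested genes), 13 between PMD-Sen and DDR-Sen (27.4%) and 18 between Ca2+-Sen and DDR-Sen (35.5%). On the contrast of PMD-Sen with Ca2+-Sen, 13 of the 17 were lower in PMD-Sen (of all tested genes 17.3% were lower and 19.6% higher). On that of Ca2+-Sen with DDR-Sen, 15 of 18 were higher in Ca2+-Sen (17.5% of all tested genes higher and 18.0% lower).

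PMD-Sen minus Ca2+-Sen on day 0 was -4.10 log2 (SE 0.24, adjusted p = 2.1e-62) for HSPA2, -2.52 log2 (SE 0.40, adjusted p = 3.6e-09) for CRYAB and -1.72 log2 (SE 0.13, adjusted p = 3.3e-36) for DNAJA1. The organelle genes went the other way, with 2.25 log2 (SE 0.14, adjusted p = 1.1e-53) for HSPA13 and 1.75 log2 (SE 0.12, adjusted p = 4.7e-46) for HSPA9. DNAJB4 differed by 1.23 log2 (SE 0.15, adjusted p = 3.9e-15). HSPH1, which was higher in both, differed by -1.05 log2 (SE 0.13, adjusted p = 3.1e-14), and HSP90AA1 by -0.83 log2 (SE 0.12, adjusted p = 2e-11). BAG3 differed by -0.061 log2, with a 95% interval from -0.33 to 0.20, and BAG1 by -0.13 log2, with a 95% interval from -0.57 to 0.30, neither called.

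Ca2+-Sen minus DDR-Sen on day 0 was 1.95 log2 (SE 0.39, adjusted p = 4.7e-06) for CRYAB, 1.85 log2 (SE 0.14, adjusted p = 2.1e-38) for HSPH1, 1.71 log2 (SE 0.13, adjusted p = 1.5e-38) for DNAJA1 and 1.15 log2 (SE 0.15, adjusted p = 4e-13) for FKBP4. HSPA4L differed in the other direction, by -1.88 log2 (SE 0.27, adjusted p = 8.1e-11), as did DNAJB5 by -1.42 log2 (SE 0.27, adjusted p = 2.3e-06) and HSPB1 by -0.80 log2 (SE 0.12, adjusted p = 6.2e-10). PMD-Sen minus DDR-Sen was -2.21 log2 (SE 0.30, adjusted p = 4.7e-12) for HSPA4L, -1.47 log2 (SE 0.13, adjusted p = 3.4e-28) for HSPB1 and 1.24 log2 (SE 0.13, adjusted p = 9.7e-19) for HSPD1. For DNAJB1 that difference was 0.66 log2 (SE 0.15, adjusted p = 9.2e-05). HSPB8 was higher after every inducer, and its differences on day 0 were 0.033 log2, with a 95% interval from -0.39 to 0.46 (PMD-Sen minus Ca2+-Sen) and -0.38 log2, with a 95% interval from -0.80 to 0.036 (PMD-Sen minus DDR-Sen), neither called.

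On day 1, 9 genes differed between PMD-Sen and Ca2+-Sen (4.13% of all tested genes), 15 between PMD-Sen and DDR-Sen (11.7%) and 7 between Ca2+-Sen and DDR-Sen (7.32%). DNAJB1 was higher in PMD-Sen than in Ca2+-Sen by 0.70 log2 (SE 0.12, adjusted p = 2e-06) and than in DDR-Sen by 0.52 log2 (SE 0.13, adjusted p = 0.00088). HSPH1 gave 0.59 log2 (SE 0.12, adjusted p = 7e-05) and 0.53 log2 (SE 0.13, adjusted p = 0.00059) in the same contrasts. DNAJA1, which had been higher in Ca2+-Sen on day 0, was now higher in PMD-Sen, by 0.46 log2 (SE 0.12, adjusted p = 0.0037). CRYAB was lower in PMD-Sen than in Ca2+-Sen, with a difference of -1.34 log2 (SE 0.28, adjusted p = 0.00012). The chaperonin genes were lower in DDR-Sen, with a PMD-Sen minus DDR-Sen difference of 0.79 log2 (SE 0.12, adjusted p = 5.4e-10) for HSPD1 and 0.70 log2 (SE 0.23, adjusted p = 0.022) for HSPE1.

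Fewer of the genes were called between inducers on later days. On day 2, 6 genes differed between PMD-Sen and Ca2+-Sen (2.26% of all tested genes) and 6 between PMD-Sen and DDR-Sen (6.91%), all higher in PMD-Sen. Between Ca2+-Sen and DDR-Sen 0 differed (3.08%). There 4 had an unadjusted p under 0.05, and 2 were called with the shared variance taken out (6.87%). For HSPA8 the PMD-Sen minus Ca2+-Sen difference was 0.39 log2 (SE 0.10, adjusted p = 0.0063). Both counts of 6 were 3 under scaling by group totals (2.36% and 6.38% of all tested genes), and 18 and 16 with the shared variance taken out (8.15% and 15.0%). On days 3, 4 and 6 this test (edgeR and DESeq2 were not run on these tables) called 0 of the 35 in each of the 9 contrasts, with 0 to 3 at an unadjusted p under 0.05 and 0 to 2 when the variance of the shared untreated libraries was taken out. Of all tested genes, 0.142%, 1.74% and 1.47% were called on day 3, in the order PMD-Sen against Ca2+-Sen, PMD-Sen against DDR-Sen and Ca2+-Sen against DDR-Sen, 0.142%, 0.724% and 1.1% on day 4, and 0.0129%, 0.594% and 0.633% on day 6. Day 8 had 3 genes for PMD-Sen against Ca2+-Sen (3.11%), 2 of them higher in PMD-Sen (4 of 5 under scaling by group totals), 0 for PMD-Sen against DDR-Sen (0.782%; 0 at an unadjusted p under 0.05 and 0 with the shared variance taken out) and 5 for Ca2+-Sen against DDR-Sen (4.65%), in which HSP90AA1, FKBP4, DNAJB4 and DNAJB6 were lower in Ca2+-Sen and HSPA2 higher.

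On day 16, 0 genes differed between PMD-Sen and Ca2+-Sen (2.6% of all tested genes; 2 at an unadjusted p under 0.05 and 0 with the shared variance taken out), and 0 between PMD-Sen and DDR-Sen (0.187%; 2 and 0). Ca2+-Sen and DDR-Sen differed in 3 (6.06%): HSPA2 by 1.18 log2 (SE 0.25, adjusted p = 0.00017), HSPD1 by 0.42 log2 (SE 0.13, adjusted p = 0.033) and HSPB8 by -0.64 log2 (SE 0.20, adjusted p = 0.032), each as Ca2+-Sen minus DDR-Sen. Scaling by group totals left 1 higher and 1 lower. Neither this count nor that of day 8 under the same scaling is set against a share of all tested genes. The intervals leave room for differences: for HSP90AB1 PMD-Sen minus Ca2+-Sen was -0.12 log2, with a 95% interval from -0.41 to 0.17.

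From day 0 to day 1, 22 of 35 genes changed in Ca2+-Sen, 16 of them downward (34.9% of all tested genes changed), 15 in PMD-Sen, 11 of them upward (27.7%), and 3 in DDR-Sen (3.35%), where 8 did with the shared variance taken out (10.6%). In Ca2+-Sen HSPH1 fell by 1.64 on the log2 scale (SE 0.11, adjusted p = 6e-44), and DNAJA1 and CRYAB changed by -1.43 log2 (SE 0.12, adjusted p = 2.4e-32) and -1.29 log2 (SE 0.37, adjusted p = 0.0026). HSPB1 rose by 0.89 log2 (SE 0.11, adjusted p = 7.6e-15) and DNAJB5 by 1.70 log2 (SE 0.27, adjusted p = 2.8e-09). PMD-Sen changed by -2.63 log2 (SE 0.15, adjusted p = 1.3e-65) for HSPA13, -1.17 log2 (SE 0.12, adjusted p = 5.9e-20) for HSPA9 and 2.32 log2 (SE 0.26, adjusted p = 3.2e-17) for HSPA2. HSPH1 in PMD-Sen stayed high, with a change of 0.005 log2, with a 95% interval from -0.26 to 0.27. The 3 called in DDR-Sen without that step were HSPA4L (-0.96 log2, SE 0.26, adjusted p = 0.012), HSPA2 (-0.87 log2, SE 0.22, adjusted p = 0.0046) and HSP90AA1 (0.48 log2, SE 0.12, adjusted p = 0.0052).

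Set against RS, day 16 of PMD-Sen differed in 0 of the 35 genes (0.659% of all tested genes; 4 at an unadjusted p under 0.05 and 3 with the shared variance taken out), and day 16 of DDR-Sen in 0 (0.142%; 2 and 0). Day 16 of Ca2+-Sen differed in 2 (4.06%), both lower than in RS: HSPB8 with a difference of -0.87 log2 (SE 0.24, adjusted p = 0.012) and DNAJB4 with -0.71 log2 (SE 0.22, adjusted p = 0.031). For HSPD1 the difference from RS was 0.14 log2, with a 95% interval from -0.22 to 0.51, in PMD-Sen, and 0.031 log2, with a 95% interval from -0.32 to 0.38, in DDR-Sen. The SE of RS was larger than that of the inducers, and a difference that was not called is not shown to be absent.

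Other folding genes, from a list of 34 that are not among the 40, gave 32 that were tested. Of these, 8 were higher and 9 lower on day 0 of PMD-Sen (all tested genes 19% and 19.3%), and 9 higher and 5 lower on day 0 of Ca2+-Sen (23% and 25.5%). Day 2 of PMD-Sen had 14 higher and 2 lower (8.43% and 6.69%), and day 8 of Ca2+-Sen 0 and 17 (14.9% and 17%). On day 16 of DDR-Sen 1 was higher and 15 lower (12.7% and 16%), and in RS 1 and 13 (11.2% and 11%). The 8 subunits of the cytosolic chaperonin TRiC were all called lower on day 8 of Ca2+-Sen and on day 16 of DDR-Sen, and 7 of 8 were higher on day 2 of PMD-Sen (median log2 fold change -0.51, -0.50 and 0.28). CCT5 was at 8059.5 in untreated cells, 9121 on day 2 of PMD-Sen and 4479 on day 16 of DDR-Sen. Of the 5 prefoldin subunits tested, 3 were lower on day 8 of Ca2+-Sen (17% of all tested genes). FKBP5, a glucocorticoid-regulated co-chaperone of HSP90, was highest in untreated cells (417) and lowest in RS (74.7), and was called lower in 22 comparisons.

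Of 7 other genes that heat shock factors are known to act on or with, 4 were higher and 1 lower on day 0 of PMD-Sen (all tested genes 19% and 19.3%). Day 0 of Ca2+-Sen had 2 and 1 (23% and 25.5%), and day 0 of DDR-Sen 3 and 2 (12.5% and 14.2%). Among them, ZFAND2A rose from 345 in untreated cells to 879 on day 0 of PMD-Sen (1.35 log2, SE 0.19, adjusted p = 4.9e-11). On day 0 of Ca2+-Sen ZFAND2A was at 0.45 log2 (SE 0.20, adjusted p = 0.049). SERPINH1 (HSP47), the collagen chaperone, was at 0.59 log2 (SE 0.093, adjusted p = 1.8e-09) on day 0 of PMD-Sen and was lower in each of the other 24 comparisons. CACYBP was lower in 18 comparisons and higher in 0.

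The genes whose log2 fold change followed DNAJB1 most closely over the 25 comparisons, out of 15474 ranked, were SSU72 (Pearson r = 0.883), LARP6 (0.882), GLRX3 (0.868), TRAPPC3 (0.856) and RPS19BP1 (0.855). None of these 5 was among the 40 genes. The 25 comparisons share their untreated libraries, so these correlations are a description only.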

How the data were processed

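mRNA of WI-38 cells was sequenced in 52 libraries, 2 for each of 26 groups. Per the labels, the authors used Trim Galore, HISAT2, HTSeq, featureCounts and DESeq2, without versions or roles, and GRCh38 (hg38) as the genome. The authors deposited 25 distinct comparison tables in the form of DESeq2 results, each of 1 group against the untreated libraries, and the remaining files repeat them. The authors' tables hold the mean signal of a gene (counts divided by size factors, averaged over the 4 libraries), the log2 fold change and its standard error as the authors fitted them, the Wald statistic as a score, and the authors' p-value and adjusted p-value. These are the authors' own comparisons, and no other per-sample columns were used (0 were found). Whether replicates were separate cultures is given by the study only as independent samples. The p-values rest on the standard errors that the authors fitted from 2 libraries per group, and the spread between single libraries could not be seen.

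From each mean and fold change the untreated and group levels were computed and put on the scale of the RS table through 8645 genes with a mean over 200 in every table. A row that names no gene was dropped from 23 tables. Genes with a mean level of at least 10 over the 26 groups were tested (15479), the authors' Wald p-values were adjusted by Benjamini-Hochberg within each table, and an adjusted p under 0.05 was called. Differences of 2 fold changes were tested against both standard errors (normal, two-sided). The precision rests on 15.4 M to 58.0 M counted reads per library. Calculations were tested on simulated data and run in Python (3.11.15) with SciPy (1.17.1), pandas (2.3.3) and NumPy (2.4.6), and plots were drawn with matplotlib (3.10.9).

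The 40 genes, their roles, the other gene lists and the tests were chosen with earlier results of these data known. Within each role, up to 3 genes with a mean of at least 10 and the widest range of level on the log2 scale were to be given on every day, and the others by ranges and counts. HSPH1, HSPA8, HSPB6, HSPB8 and DNAJB1 were given by day in addition, chosen after their values were seen, and HSPB3 is given by its range because its reads were few. Alternatives were other filters, a minimum size of change, other scalings, the authors' own adjusted p-values and removal of the shared untreated variance. Promoter windows came from RefSeq (GRCh38.p14), in which 35 of the 40 genes had one, and gene overlaps from GENCODE v29. Values of 1 gene among the other folding genes are not reported here.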

Additional observations from a re-analysis of the deposited data

Results flagged for a closer look

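For 8 of the heat shock genes, 2 inducers were called in opposite directions against untreated cells, and the difference itself was called (adjusted over all tested genes, both standard errors combined). HSPA2 had the largest such difference: on day 0, SDS minus KCl was -4.10 on the log2 scale, with levels of 143 after SDS, 2452 after KCl and 1063 in untreated cells. DNAJA1 differed by -1.72 in the same contrast (levels 6408 and 21142), and DNAJB4 by 1.23 (levels 4504 and 1913). For KCl minus DXR on day 0 the difference was 0.91 for HSP90AA1 (levels 59900.2 and 31893) and 0.87 for STIP1 (levels 8996 and 4929). SDS minus DXR on day 0 gave -2.21 for HSPA4L (levels 295 and 1362), -1.47 for HSPB1 (levels 7967 and 22110.5) and 1.24 for HSPD1 (levels 13194 and 5571). How many of all tested genes had such opposite calls is not given here, so the 8 genes cannot be set against a background. On day 0 the difference was called for 36.9% (SDS and KCl), 27.4% (SDS and DXR) and 35.5% (KCl and DXR) of all tested genes. No group held enough single-library values to look for a library far from the others. On day 0 of Ca2+-Sen the endothelial markers also stood at 220 against 46.4 in untreated cells, and 6 of the 7 fibroblast markers were lower and 1 higher. On day 0 of DDR-Sen the endothelial markers were at 94.7, of which VWF, not called, made up 79.5, and the white blood cell markers at 24.1 against 0.512. On day 0 of PMD-Sen 5 of the 7 fibroblast markers were lower and 1 higher. The part of these markers' cells in the differences was not tested.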

How the results depend on the processing

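When a call also had to reach a log2 fold change of 1 in size, the counts of genes called against untreated cells were 6 on day 0 of PMD-Sen, 6 of Ca2+-Sen and 3 of DDR-Sen, 1, 2 and 2 on day 1, 1, 0 and 0 on day 8, 0, 0 and 0 on day 16, and 1 in RS. Between inducers on day 0 they were 8 (SDS and KCl), 7 (SDS and DXR) and 8 (KCl and DXR), on day 1 they were 1, 0 and 0, on day 2 the 2 contrasts with SDS gave 0 each, on day 8 SDS and KCl differed in 1 and KCl and DXR in 1, and on day 16 KCl and DXR differed in 1. Shares of all tested genes at this size are given above for days 0 and 16 and RS against untreated cells. The other counts at this size are not set against such a share. With the variance of the shared untreated libraries taken out, 20 genes differed between SDS and DXR on day 0 (40.3% of all tested genes). On day 1, 14 differed between SDS and KCl (10.5%) and 12 between KCl and DXR (16.1%). The same change gave 18 (SDS and KCl, 8.15%), 16 (SDS and DXR, 15.0%) and 2 (KCl and DXR, 6.87%) on day 2. For day 3 it gave 2 (SDS and DXR, 4.19%) and 1 (KCl and DXR, 3.52%). For day 8 it gave 8 (SDS and KCl, 7.43%) and 11 (KCl and DXR, 10.7%). Scaling by group totals gave 3 and 3 for SDS against KCl and DXR on day 2 and 5 for SDS and KCl on day 8. With no filter on low values, KCl and DXR on day 16 differed in 1, and with a filter of 100 on day 2 in 1. The day 8 count under scaling by group totals and the counts under other filters are not set against a share of all tested genes. The settings for days 2, 3, 4, 6 and 8 between inducers were chosen after seeing the data. The cause of these changes was not tested beyond what each setting leaves out. Median centring moved log2 fold changes by -0.028 to 0.020 and group totals by -0.062 to 0.030. Among 490 rescaled values of single genes, 8 lost their call and 7 gained one, and none changed sign while called.

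The tables give no value of a single library, so leaving out each library in turn was not run. No paired analysis was possible because the tables hold no values of single libraries. Depth and the shared pair of untreated libraries limit all comparisons: a chance deviation of a gene in the untreated libraries enters all 25 comparisons alike. Processed pseudogenes and overlapping genes can share reads with members such as HSPA8, HSPD1 and HSPE1, and how strand and multiple alignments were handled is not given in the sources used here. HSPA6, HSPB3, CHORDC1 and DNAJA4 had the widest errors.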
